A study of Mus musculus with 51 samples.

Results

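The genes described here are 42 cell cycle genes, 19 that act in DNA replication and 23 that act in mitosis. They were chosen by symbol, and all 42 were found in a table that counts reads for 52636 mouse genes. The counts came from RNA-seq of 51 libraries of sorted epithelial cells in 14 groups. All 42 genes passed the low-count filter in each of the 15 comparisons.

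Wild-type oesophageal cells were sorted for low EpCAM, an epithelial surface protein (6 libraries, strain CD1). Krt5-SmoM2 oesophagus carries SmoM2, an active form of Smoothened, the membrane protein that switches on Hedgehog signalling. The genotype is also named for the basal keratin Krt5. EpCAM-high cells of this oesophagus are called SmoM2 here (6 libraries, strain CD1). Krt5-SmoM2-Krt8YFP oesophagus, of mixed genetic background, gave EpCAM-high cells with YFP, a fluorescent reporter named for the simple-epithelium keratin Krt8, and EpCAM-high cells without it (3 libraries each, called Krt8-YFP+ and Krt8-YFP-). Krt5-SmoM2-Sox9fl/fl oesophagus adds floxed alleles of the transcription factor gene Sox9, and its EpCAM-high cells were sorted (4 libraries, no strain given). Krt5-SmoM2 oesophagus at 3 and at 7 weeks was sorted into EpCAM-high and EpCAM-low cells (4 libraries each, no strain given). The labels do not state from what event the weeks are counted. Mice with the Krt8YFP reporter and no SmoM2 gave embryonic oesophagus at E13.5 (EpCAM and YFP, 2 libraries), the columnar part of the junction (high EpCAM and YFP, 4 libraries), stomach (YFP, 2 libraries) and gut (YFP, 2 libraries), all of mixed genetic background, and the squamous part of the junction (high EpCAM without YFP, 3 libraries, no strain given). The labels give no age beside the embryonic day and the weeks, no pooling, and nothing that ties libraries of a group to separate animals, so the p-values below measure the spread between these libraries.

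Replication starts when Cdc6 and Cdt1 load the Mcm2 to Mcm7 helicase onto DNA in G1, and cyclin E (Ccne1, Ccne2) with its kinase and the GINS complex (Gins1, Gins2 among its subunits) help to fire it in S phase. Pcna is the sliding clamp of the polymerases, Rrm1 and Rrm2 form ribonucleotide reductase, Tyms and Tk1 make thymidine nucleotides, Uhrf1 carries DNA methylation over to the new strand, and E2f1 is a transcription factor of many of these genes. Later in the cycle Foxm1 and the MuvB complex switch on genes of G2 and mitosis. They include cyclins (Ccna2, Ccnb1, Ccnb2) and their kinase Cdk1, the kinases Plk1, Aurka, Aurkb and Bub1, and the spindle checkpoint protein Bub1b. Others are the kinetochore proteins Cenpe and Cenpf, the spindle motors and spindle proteins Kif11, Kif20a, Kif23, Tpx2 and Nusap1, and the passenger protein Birc5. Cdc20 and Ube2c, also among them, act with the anaphase-promoting complex to destroy cyclins. Mki67 is the proliferation antigen Ki-67, Top2a untangles sister chromatids and Parpbp binds PARP1 in DNA repair. In squamous epithelium such as that of the oesophagus, cycling cells are found in and near the basal layer, and cells leave the cycle as they differentiate upward.

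The promoters below show the letters by which the 2 kinds of gene differ. Each is the 160 bases directly before the RefSeq start site (build GRCm38.p6), read 5′ to 3′ on the gene's strand. Capitals mark the letters of an E2F site (TTTCCCGC, TTTCGCGC, TTTGCCGC or TTTGGCGC, on either strand) or of a cell cycle homology region, CHR (TTTGAA or TTCGAA, on either strand), and overlapping matches run together. The replication genes Mcm5 (chr8:75109349-75109508, plus strand), Mcm6 (chr1:128359706-128359865, minus strand) and Cdc6 (chr11:98907991-98908150, plus strand) carry E2F letters. Cdk1 (chr10:69352913-69353072, minus strand) carries both kinds. Mki67 (chr7:135716380-135716539, minus strand), Cdc20 (chr4:118437344-118437503, minus strand), Top2a (chr11:99024190-99024349, minus strand) and Ube2c (chr2:164769769-164769928, plus strand) carry CHR letters.
Mcm5: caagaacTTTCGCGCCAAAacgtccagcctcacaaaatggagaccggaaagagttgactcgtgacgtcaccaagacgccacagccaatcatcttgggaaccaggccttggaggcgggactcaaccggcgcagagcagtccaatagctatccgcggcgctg
Mcm6: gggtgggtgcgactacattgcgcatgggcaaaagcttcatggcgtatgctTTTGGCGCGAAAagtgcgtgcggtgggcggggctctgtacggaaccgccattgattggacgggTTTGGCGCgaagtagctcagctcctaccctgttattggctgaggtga
Cdc6: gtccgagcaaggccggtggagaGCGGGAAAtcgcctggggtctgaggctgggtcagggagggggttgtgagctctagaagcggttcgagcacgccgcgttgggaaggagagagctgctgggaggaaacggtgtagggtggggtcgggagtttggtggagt
Cdk1: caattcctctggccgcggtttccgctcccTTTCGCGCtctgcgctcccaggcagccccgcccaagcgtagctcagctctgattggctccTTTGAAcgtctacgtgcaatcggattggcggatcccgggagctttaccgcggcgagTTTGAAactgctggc
Mki67: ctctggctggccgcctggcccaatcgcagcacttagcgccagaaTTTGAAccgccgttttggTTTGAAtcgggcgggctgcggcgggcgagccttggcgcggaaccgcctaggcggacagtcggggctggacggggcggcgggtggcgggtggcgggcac
Cdc20: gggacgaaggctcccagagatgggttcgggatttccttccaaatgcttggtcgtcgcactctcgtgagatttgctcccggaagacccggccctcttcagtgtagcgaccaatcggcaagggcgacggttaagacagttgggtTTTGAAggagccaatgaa
Top2a: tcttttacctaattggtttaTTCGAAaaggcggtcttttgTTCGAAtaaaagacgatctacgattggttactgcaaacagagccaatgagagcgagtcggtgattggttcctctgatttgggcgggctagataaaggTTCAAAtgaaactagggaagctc
Ube2c: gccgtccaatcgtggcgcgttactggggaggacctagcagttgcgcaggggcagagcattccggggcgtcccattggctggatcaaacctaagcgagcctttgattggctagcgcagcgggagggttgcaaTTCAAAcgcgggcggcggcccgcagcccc

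Over windows from 250 bases before to 50 bases after the start, 15 of the 19 replication genes and 18 of the 23 mitotic genes had an entry. E2F letters stood in 7 of the 15 replication genes (46.7%), which were Mcm3, Mcm5, Mcm6, Mcm7, Cdc6, Cdt1 and Uhrf1. They stood in 1 of the 18 mitotic genes (5.56%), Cdk1, and in 2.6% of all 27025 genes with a window. CHR letters stood in 14 of the 18 mitotic genes (77.8%), in 2 of the 15 replication genes (13.3%), Mcm2 and Mcm7, and in 21.7% of all genes. The letters CCAAT, on either strand, stood in 16 of the 18 mitotic genes (88.9%), in 9 of the 15 replication genes (60%) and in 41.1% of all genes. All 14 mitotic windows with CHR letters also held CCAAT. Such letters are a description of these windows and not evidence of binding. The genes without an entry were Mcm4, Gins1, Gins2, Ccne2, Ccna2, Aurkb, Kif20a, Tpx2 and Foxm1.

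Levels are given as CPM, a gene's reads scaled by its library's total, and totals ran from 1.61 to 12.3 M reads (M for mega). The shallowest were Krt8-YFP+ 2 (1.61 M), both gut libraries (2.81 and 3.63 M), stomach 2 (3.19 M) and Krt8-YFP+ 3 (3.82 M). Gli1, a target gene of Hedgehog signalling, was at 0.43 to 1.22 CPM in wild type and at 194 to 288 CPM in SmoM2. In the time series it was at 98.55 to 122 CPM (3 weeks) and 143 to 182 CPM (7 weeks) in EpCAM-high cells. EpCAM-low cells had less, at 15.7 to 17.6 CPM (3 weeks) and 6.13 to 11.0 CPM (7 weeks). Sox9 was at 51.7, 45.7, 127 and 45.8 CPM in libraries 1 to 4 of the Sox9fl/fl group against 72.7 to 194 CPM in SmoM2, so the library labelled Sox9fl/fl 3 lay within the SmoM2 range. Krt8 was at 10.2 to 39.8 CPM in Krt8-YFP+ cells, 0.235 to 3.32 CPM in Krt8-YFP- cells, and 363 to 3113 CPM in the columnar junction, stomach and gut libraries, where the basal keratin Krt5 was at 1.05 to 41.0 CPM. Wild-type libraries 3 and 5, and 4 and 6, were much closer to each other than to the rest of their group: over genes, chi-square per degree of freedom was 1.83 and 2.31 for these pairs and 9.94 to 31.5 for the other wild-type pairs. The closest pairs outside wild type were not far off, at 2.5 for 3-week EpCAM-high 1 and 3 and 2.59 for 3-week EpCAM-low 1 and 3. The raw names of each wild-type pair share an ending, which wild type 2 shares with 3 and 5 although it differs from them, and comparisons with wild type are also given with each pair summed into 1 library. Raw names also start with a number that the labels do not explain, and apart from the Krt8-YFP+ with Krt8-YFP-, EpCAM-high with EpCAM-low, and gut with stomach comparisons, the groups compared differ in it for all or some libraries.

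Summed over the 19 replication genes, the embryo stood highest and the Krt8-YFP+ cells lowest. The embryo had 1880 and 1106 CPM, a mean of 1493 ± 548 (SD, n = 2). The Krt8-YFP+ libraries had 288, 215 and 407 CPM (303 ± 97.0, n = 3). Wild type ran from 373 to 535 CPM (464 ± 72.7, n = 6), and the other 11 group means lay between 478 in the junction columnar cells and 780 in the 7-week EpCAM-low cells. Taken gene by gene, 18 of the 19 had their highest group mean in the embryo, the exception being Tk1 in the stomach. Krt8-YFP+ cells had the lowest group mean of 12 of the 19. Columnar junction cells had the lowest for Pcna, Rrm2 and E2f1, wild type for Cdc6 and Gins1, squamous junction cells for Ccne1 and 7-week EpCAM-low cells for Gins2.

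The mitotic genes followed another order. Their sum was highest in the 7-week EpCAM-low cells (2581 ± 285 CPM, n = 4), the 7-week EpCAM-high cells (2362 ± 421, n = 4), the squamous junction (2309 ± 237, n = 3) and the 3-week EpCAM-high cells (2244 ± 401, n = 4), whose libraries overlapped. The embryo was below them in mean, within their spread (1918 ± 452, n = 2), followed by 3-week EpCAM-low cells (1890 ± 227, n = 4) and wild type (1722.5 ± 451, n = 6), and these groups overlapped. Krt8-YFP+ cells had 405, 237 and 639 CPM (427 ± 202, n = 3), and the lowest group mean of all 23 mitotic genes. The next lowest sums were those of the columnar junction (1110 ± 196, n = 4), the gut (709 and 1635) and SmoM2 (1212 ± 195, n = 6). The ratio of the replication sum to the mitotic sum, which is read between groups only because the sums are not corrected for gene length, was 0.766 in the embryo, 0.752 in Krt8-YFP+ cells and 0.584 in Krt8-YFP- cells, against 0.276 in wild type and 0.223 in 3-week EpCAM-high cells.

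**Figure D1:**
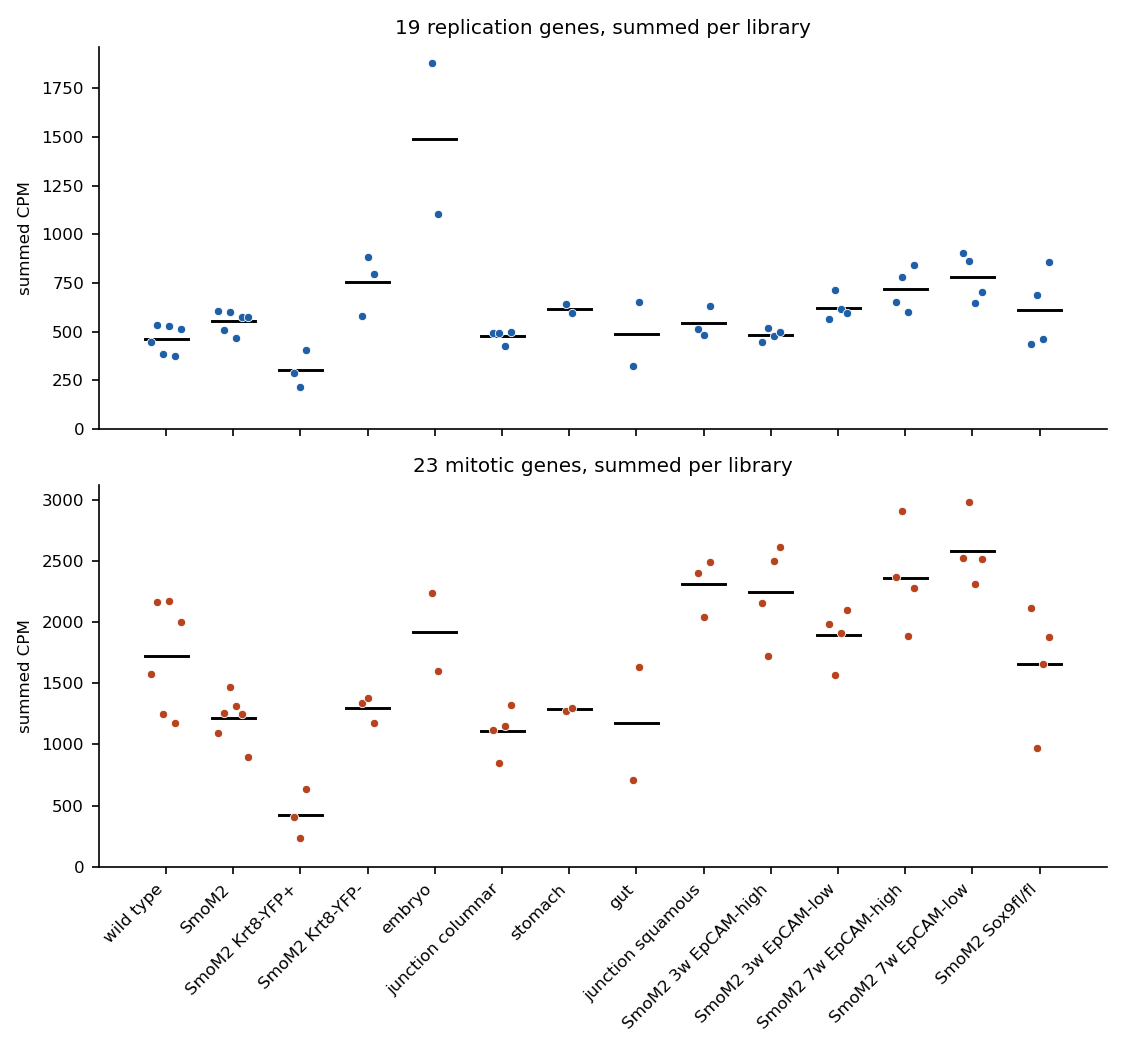
Summed CPM of the 19 replication genes (top) and of the 23 mitotic genes (bottom) in each of the 51 libraries, by group. Points are libraries and lines are group means, and the Krt8-YFP+ mean is the lowest in both panels (303 and 427 CPM), while the embryo mean is the highest in the replication panel (1493 CPM).

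Differences between groups were tested gene by gene over all genes with edgeR, scaled by TMM factors, and a gene is called at an adjusted p under 0.05. TMM rescales each library by its bulk of genes, so that a fold change can differ from the ratio of 2 CPM values. In bulk samples, fewer cycling cells and less RNA of these genes per cell cannot be told apart.

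**Figure D2:**
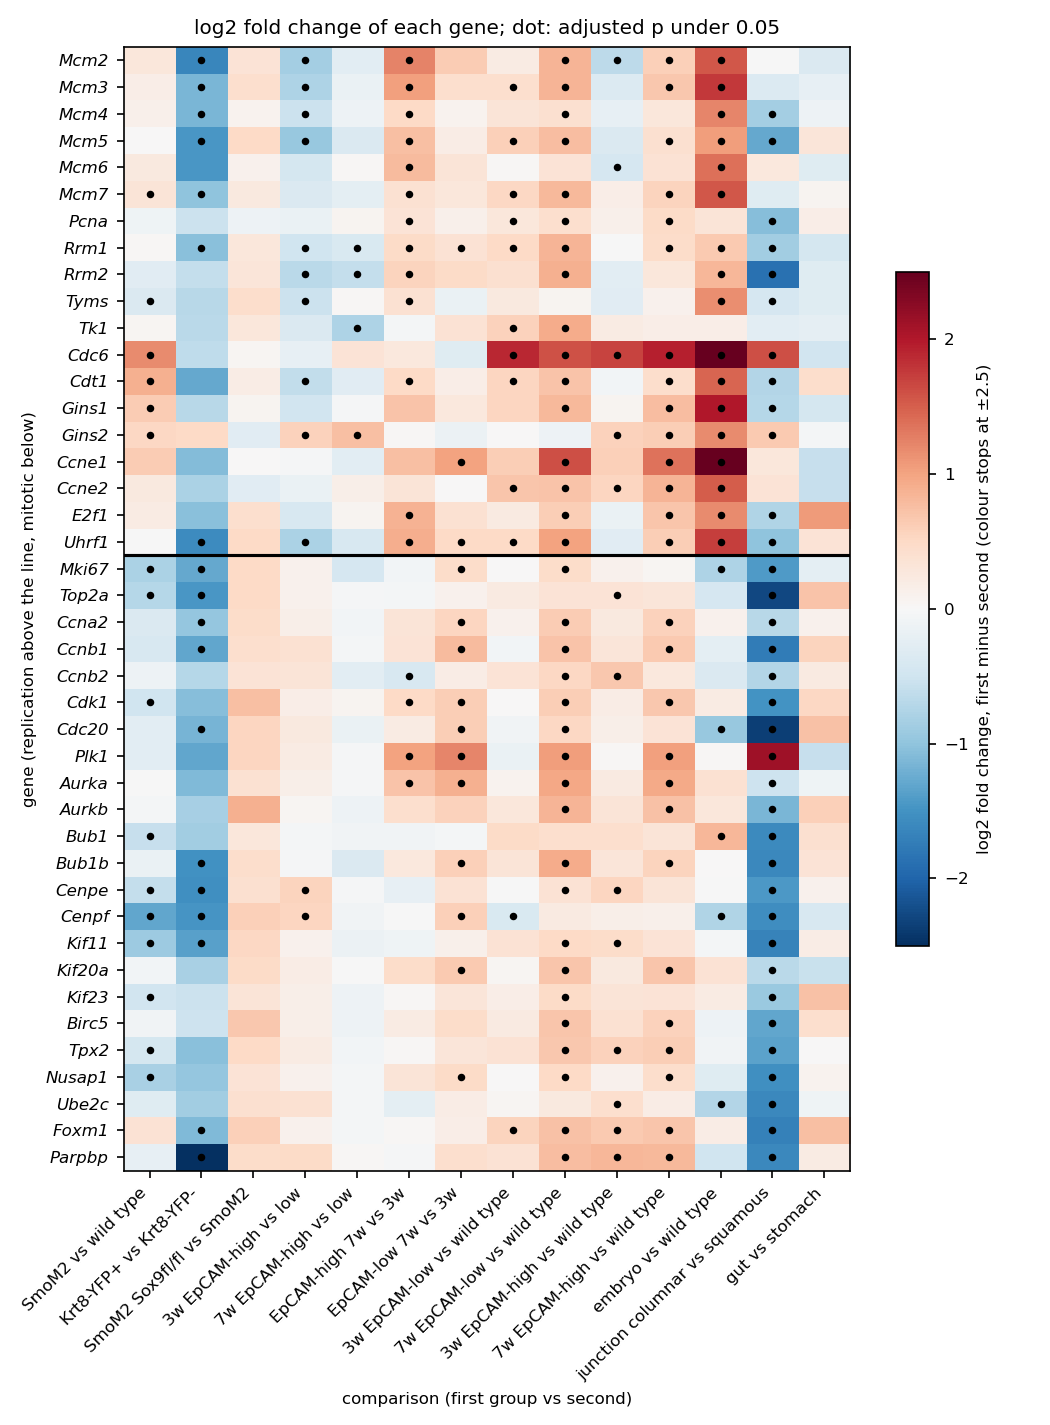
log2 fold change of each of the 42 genes (vertical axis, replication genes above the line) in 14 comparisons (horizontal axis), red where the first group is higher and blue where it is lower, with a dot where the adjusted p was under 0.05. Junction columnar against squamous is blue for 22 of the 23 mitotic genes and red for Plk1, and embryo against wild type is red for all 19 replication genes.

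In SmoM2 against wild type 10 of the 23 mitotic genes fell and none rose, while replication genes were called higher at the same share as all genes. Among the replication genes called, the loading factors led: Cdt1 was at 7.59, 10.4 and 14.3 CPM (lowest, median, highest) in wild type and at 20.2, 22.4 and 23.4 CPM in SmoM2. The libraries of the 2 groups did not overlap, and the log2 fold change was 0.89 ± 0.14 (SE, adjusted p = 0.000119). Cdc6 was low in wild type (0.81, 1.21 and 2.19 CPM, 69 reads in all) and stood at 2.71, 2.9 and 4.08 CPM in SmoM2, again with no overlap (1.18 ± 0.24, adjusted p = 0.000891). Gins2 went from 21.9, 26.6 and 37 to 35, 43.4 and 49.1 CPM, with overlapping ranges (0.52 ± 0.14, adjusted p = 0.00541). Mcm7 (0.31 ± 0.09) and Gins1 (0.64 ± 0.22) rose as well, and Tyms fell (-0.35 ± 0.14). That made 5 replication genes higher and 1 lower of 19, where 26.2% of all genes tested were higher and 23.3% lower, so that the higher count is at the background share. The median log2 fold change was 0.20 over the replication genes and 0.01 over all genes. Mcm5 (0.02 ± 0.14), Pcna (-0.11 ± 0.13), Rrm2 (-0.28 ± 0.21) and Ccne1 (0.64 ± 0.36) were not called.

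The mitotic genes that fell in SmoM2 were Mki67, Top2a, Cdk1, Bub1, Cenpe, Cenpf, Kif11, Kif23, Tpx2 and Nusap1, and none rose. Cenpf, a kinetochore protein, was at 117, 159 and 215 CPM in wild type and at 50.6, 75.5 and 92.3 CPM in SmoM2 (-1.30 ± 0.17, adjusted p = 1.61e-05), and it was the only one of the 10 whose libraries did not overlap. Mki67 was at 366, 546 and 709 CPM in wild type and at 256, 343 and 423 CPM in SmoM2 (-0.80 ± 0.16, adjusted p = 0.00087). Here the upper SmoM2 libraries lay among the lower wild-type ones. Kif11 (-0.91 ± 0.18), Nusap1 (-0.80 ± 0.16) and Top2a (-0.72 ± 0.16) moved by like amounts. Ccnb1 (-0.40 ± 0.24, adjusted p = 0.176) and Plk1 (-0.25 ± 0.26, adjusted p = 0.446) were not called. The median over the 23 was -0.36. Of other genes of these pathways, 14 of 54 replication genes were higher and 5 lower, led by Pold2 (-1.20 ± 0.15), a polymerase delta subunit, and Rfc2 (0.85 ± 0.11), a clamp loader subunit. Of 59 other mitotic genes 2 were higher and 23 lower, among them the cytokinesis genes Anln (-1.26 ± 0.10) and Prc1 (-0.82 ± 0.12). With the 2 wild-type pairs summed, the replication count fell to 2, Cdt1 and Cdc6, and the mitotic count was 11. Beside this, the summed suprabasal markers (7 genes of differentiating squamous cells) were at 11899 to 26505 CPM in wild type and 6377 to 9917 CPM in SmoM2. Of the 7 genes, 3 were called lower, among them Krt4 (-2.23), and 1 higher, with a median of -0.28. The EpCAM gates and raw-name numbers of the 2 groups also differ. The part of these in the result was not tested. The fall was not seen in EpCAM-high Krt5-SmoM2 cells of the time series, set against the same wild-type libraries below. There 8 mitotic genes were higher at 3 weeks and 13 at 7 weeks, and none was lower, beside 28.2% and 27.7% of all genes higher. Top2a, Cenpe, Kif11 and Tpx2 were lower in SmoM2 and higher in the 3-week cells. What sets these EpCAM-high groups apart was not tested.

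Krt8-YFP+ cells had lower levels of most members than Krt8-YFP- cells of the same genotype. Of the replication genes 7 were called lower and none higher: Mcm2, Mcm3, Mcm4, Mcm5, Mcm7, Rrm1 and Uhrf1. Over all genes, 6.83% were called lower and 13.1% higher. Rrm1, the large subunit of ribonucleotide reductase, was at 36.5, 23 and 41.1 CPM in the 3 Krt8-YFP+ libraries and at 80.6, 92.7 and 99.9 CPM in the 3 Krt8-YFP- libraries (-1.04 ± 0.18, adjusted p = 0.00826). Mcm5 was at 8.95, 6.85 and 17.0 against 27.3, 50.3 and 42.6 CPM (-1.46 ± 0.33, adjusted p = 0.0219). Mcm2 changed the most (-1.64 ± 0.32), from 24.7, 56.7 and 47.2 CPM to 10.1, 7.47 and 13.4 CPM. In each of these 3 genes every Krt8-YFP+ library lay below every Krt8-YFP- library. Gins2 went the other way, at 35.6, 36.1 and 38.8 against 29.2, 36.7 and 36.7 CPM, without a call (0.50 ± 0.16, adjusted p = 0.0612). Pcna (-0.53 ± 0.17, adjusted p = 0.0645), Rrm2 (-0.59 ± 0.27) and Ccne1 (-1.08 ± 0.34) were not called. The median was -1.04, against -0.03 over all genes.

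Of the mitotic genes 11 were lower and none higher: Mki67, Top2a, Ccna2, Ccnb1, Cdc20, Bub1b, Cenpe, Cenpf, Kif11, Foxm1 and Parpbp. Kif11, the motor that pushes spindle poles apart, was at 18.0, 13.1 and 23.3 CPM against 57.7, 66.7 and 60.1 CPM (-1.36 ± 0.19, adjusted p = 0.00447). Cdc20 was at 11.8, 10.6 and 14.7 against 30.4, 40.8 and 37.6 CPM (-1.16 ± 0.19, adjusted p = 0.00756). Mki67 was at 119, 55.4 and 185 against 384, 378 and 370 CPM (-1.28 ± 0.32, adjusted p = 0.0289). The Krt8-YFP- libraries lay close together in Mki67, while the shallowest Krt8-YFP+ library was far below the other two. Parpbp had the lowest fold of the list (-2.52 ± 0.54, adjusted p = 0.0172), with 1.04, 0 and 2.36 CPM against 9.73, 11.1 and 8.12 CPM. The 0 belongs to the shallowest library, where the limit that a count of 0 allows is 1.87 CPM, counting error alone. Plk1 was not called (-1.31 ± 0.49, adjusted p = 0.0973). The median was -1.10. All 3 Krt8-YFP+ libraries lay below all 3 Krt8-YFP- libraries in 16 of 19 replication and 22 of 23 mitotic genes, by plain CPM, as they did in 35.5% of all genes. Among other pathway genes, 12 of 54 replication genes were lower and none higher, led by Pole (-1.57 ± 0.27), and 22 of 59 mitotic genes were lower and 1 higher, led by Aspm (-1.43 ± 0.20) and Cenpa (-1.66 ± 0.24).

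With the replicate number as a block, which the data pair here, 12 replication genes were lower, Gins2 was called higher, and 16 mitotic genes were lower. Over all genes that fit called 1927 of 15598 lower and 2858 higher. The counts move with single libraries: the replication count was 2 without Krt8-YFP+ 1, Krt8-YFP+ 2 or Krt8-YFP- 2 and 1 without Krt8-YFP- 3, and the mitotic count was 4 without Krt8-YFP+ 1, 6 without Krt8-YFP- 1, 5 without Krt8-YFP- 2 or Krt8-YFP- 3 and 17 without Krt8-YFP+ 3. Over all genes these fits called from 220 (without Krt8-YFP- 3) to 672 (without Krt8-YFP+ 2) lower, against 1065 with all libraries. Thinned to equal totals of 1.61 M reads, 8 of the 16 replication genes and 11 of the 21 mitotic genes still tested were lower, beside 895 of 11074 genes. Beside the cell cycle genes, suprabasal markers were at 24581 to 33298 CPM in Krt8-YFP+ and 6461 to 9243 CPM in Krt8-YFP- cells, basal markers at 2373 to 3783 and 7657 to 11158 CPM, fibroblast markers (9 genes, none at 0 throughout a group) at 69.2 to 609 and 17.2 to 81.7 CPM, and muscle markers (5 genes, none at 0 throughout a group) at 6.55 to 238 and 4.69 to 16.7 CPM. Their part in the result was not tested.

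**Figure D3:**
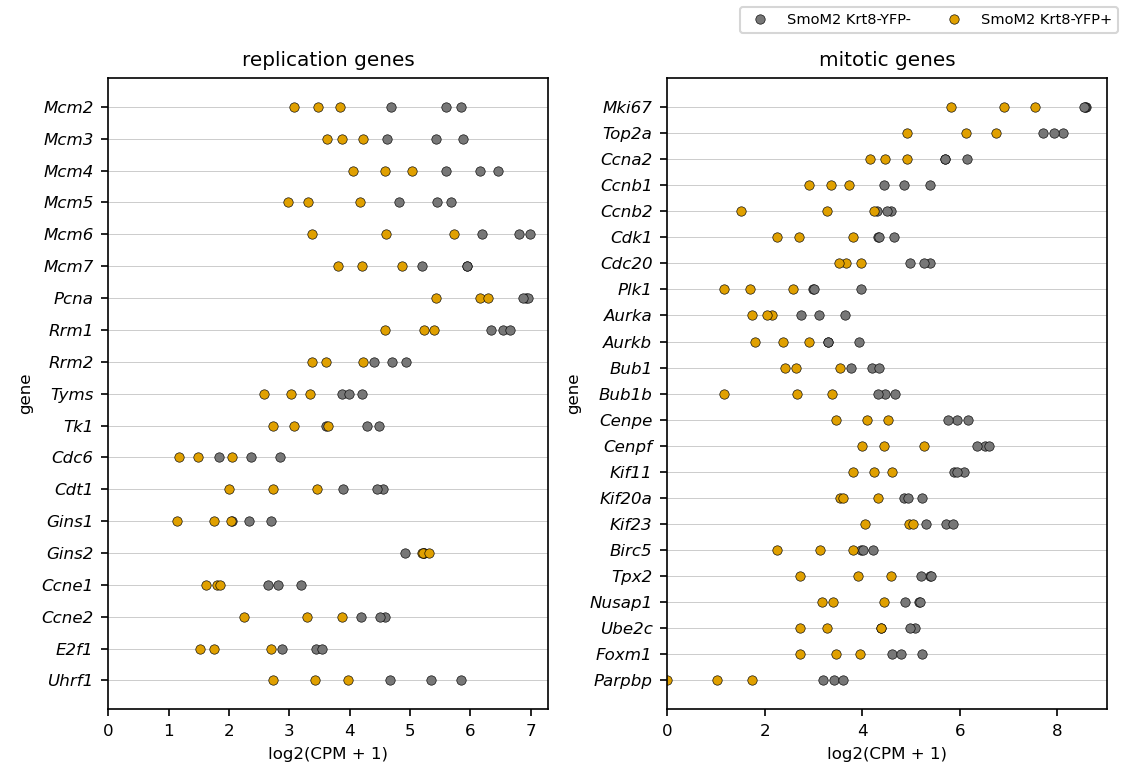
Level of each gene as log2(CPM + 1) (horizontal axis) in the 3 Krt8-YFP+ (yellow) and 3 Krt8-YFP- (grey) SmoM2 libraries, replication genes left and mitotic genes right. The yellow points lie below the grey ones in 16 of the 19 replication genes and in 22 of the 23 mitotic genes, Gins2 among the exceptions.

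Between SmoM2 cells with floxed Sox9 and SmoM2 cells no member was called. Over all genes 1.18% were higher and 1.48% lower. At an unadjusted p under 0.05 there were 4 replication and 12 mitotic genes in the edgeR fit, a cutoff that was counted for members only. DESeq2 called none and 2, Cdk1 and Aurkb, both higher, as it called 585 of 20419 genes. Mki67 was at 568, 300, 459 and 546 CPM in the 4 Sox9fl/fl libraries and at 256, 343 and 423 CPM (lowest, median, highest) in SmoM2 (0.49 ± 0.17, adjusted p = 0.136). Cdk1 was at 37.6, 14.1, 29.7 and 32.8 CPM against 14.1, 18.3 and 20 CPM (0.75 ± 0.21, adjusted p = 0.0729). The second Sox9fl/fl library was the lowest of its group in both genes, and in its summed mitotic level (968 CPM, against 2112, 1656 and 1880), while it was high in replication genes (690 CPM, against 437, 460 and 858). All 23 mitotic folds were above 0, from 0.27 to 0.89, with a median of 0.48, against 0.25 over the replication genes and 0 over all genes. Without Sox9fl/fl 2, 17 mitotic genes were called higher, in a fit that called 754 of 17355 genes higher, against 201 of 17047 with it. Without Sox9fl/fl 3, whose Sox9 level lay within the SmoM2 range, and without SmoM2 1, whose raw name starts with another number than the rest, no mitotic gene was called. Mcm5 (0.50 ± 0.23, adjusted p = 0.25), Pcna (-0.12 ± 0.18), Rrm2 (0.30 ± 0.25) and Ccne1 (0.02 ± 0.41) were not called either.

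In the time series, EpCAM-high cells at 3 weeks had less of many replication genes than EpCAM-low cells of the same time, while no mitotic gene was lower in them. Mcm5 was at 18.3, 21, 22.2 and 24.3 CPM in EpCAM-high and at 31.7, 45.7, 43.6 and 38.4 CPM in EpCAM-low cells (-0.95 ± 0.19, adjusted p = 0.00128). Rrm1 was at 62.4, 63.4, 74.7 and 82.6 against 96.5, 94.4, 96.6 and 98.8 CPM (-0.50 ± 0.13, adjusted p = 0.0071). In both genes every EpCAM-high library lay below every EpCAM-low library. Gins2 was the reverse, at 45.7, 46.6, 42.4 and 43.0 against 32.5, 29.3, 26.9 and 26.2 CPM (0.58 ± 0.14, adjusted p = 0.00434). In all, 9 replication genes were lower (Mcm2, Mcm3, Mcm4, Mcm5, Rrm1, Rrm2, Tyms, Cdt1 and Uhrf1) and Gins2 alone was higher, where 7.84% of all genes were lower and 7.37% higher. The medians were -0.48 for the replication genes and -0.01 for all genes. Pcna (-0.16 ± 0.09, adjusted p = 0.273) and Ccne1 (-0.02 ± 0.34) were not called.

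Of the mitotic genes at 3 weeks, the kinetochore genes Cenpe (0.55 ± 0.16, adjusted p = 0.0171) and Cenpf (0.53 ± 0.17, adjusted p = 0.0311) were higher in EpCAM-high cells, and none was lower. Cenpf was at 184, 150, 222 and 224 CPM in EpCAM-high and 148, 104, 126 and 142 CPM in EpCAM-low cells, with the lowest EpCAM-high library just above the highest EpCAM-low one. Mki67 (0.11 ± 0.16), Top2a (0.11 ± 0.16), Ccnb1 (0.38 ± 0.22) and Plk1 (0.21 ± 0.27) were not called. The median was 0.14. Fitted on these 8 libraries alone, 12 replication genes were lower, 1 was higher, and 5 mitotic genes were higher. That fit called 2240 of 15777 genes lower and 2234 higher. The replicate numbers pair these libraries, and with that block in the fit of the 8 libraries 13 replication genes were lower, 1 was higher, and 13 mitotic genes were higher, Mki67, Top2a and Ccnb1 among them. Over all genes the block fit called 3047 of 15777 lower and 2921 higher. In the fit of 22 libraries the mitotic count was 0 without EpCAM-high 4, EpCAM-low 2 or EpCAM-low 3 and 1 without EpCAM-high 3, and the replication count was 6 without EpCAM-high 1, EpCAM-high 3, EpCAM-high 4 or EpCAM-low 2. Of the other pathway genes, 18 of 54 replication genes were lower and none higher, led by Pola1 (-0.73 ± 0.12) of the priming polymerase and Dnmt1 (-0.66 ± 0.12), the partner of Uhrf1, and of 59 mitotic genes 1 was higher, Ckap2 (0.64 ± 0.17). Summed suprabasal markers were at 3452 to 4048 CPM in EpCAM-high and 5635 to 6565 CPM in EpCAM-low cells. Of the 7 genes, 3 were called lower, among them Krt4 (-2.16), and 2 higher, among them Grhl3 (0.59), with a median of 0.43. Their part was not tested.

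At 7 weeks fewer replication genes were called between the gates than at 3 weeks. The main interaction test of this change, given below, called no member. Gins2 was again higher in EpCAM-high cells, at 45.6, 41.1, 52.8 and 48.8 against 31.5, 25.1, 25.0 and 26.7 CPM (0.75 ± 0.14, adjusted p = 0.000149). Tk1, thymidine kinase, was lower, at 16.1, 21.9, 15.6 and 18.2 against 28.1, 32.6, 26.5 and 31.1 CPM (-0.76 ± 0.16, adjusted p = 0.000669). Neither gene's libraries overlapped between gates. Rrm1 (-0.38 ± 0.12, adjusted p = 0.0199) and Rrm2 (-0.59 ± 0.21, adjusted p = 0.0342) were lower too. That makes 3 lower (15.8%) and 1 higher (5.26%) of 19. Over all genes 16.8% were lower and 15.5% higher, so neither count is above the background share. Leaving out EpCAM-high 1, EpCAM-high 3, EpCAM-low 1 or EpCAM-low 2 left 2 replication genes called. Mcm5 (-0.37 ± 0.19), Pcna (0.06 ± 0.09) and Ccne1 (-0.27 ± 0.30) were not called. No mitotic gene was called in the main edgeR fit (1 at an unadjusted p under 0.05) or by DESeq2, though 1 was, lower, without EpCAM-high 2 or EpCAM-low 1. Mki67 came nearest, at 623, 772, 516 and 601 against 718, 947, 753 and 813 CPM (-0.41 ± 0.16, adjusted p = 0.0572). Fitted on these 2 groups alone, 2 mitotic genes were lower, beside 2932 of 15484 genes. Adding the replicate block, 6 replication and 3 mitotic genes were lower and 1 replication gene higher, beside 3479 and 3628 of 15484 genes. Without the low-count filter 1 mitotic gene was lower. Among other pathway genes, 8 of 54 replication genes were lower and 2 higher, with Pola1 (-0.68 ± 0.12) and Pold2 (-0.91 ± 0.16) leading, and 2 of 59 mitotic genes were lower. Summed suprabasal markers were at 5529 to 7528 and 14191 to 16479 CPM. Of the 7 genes, 3 were called lower, led by Krt4 (-3.40), and 0 higher, while the median was 0.10. Their part was not tested.

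The change of the gate difference from 3 to 7 weeks was tested as an interaction, and no member passed, beside 1.55% of all genes higher and 0.759% lower. At an unadjusted p under 0.05 there were 3 replication genes, Tyms (0.56 ± 0.20, adjusted p = 0.17), Mcm3 (0.60 ± 0.24) and Mcm5 (0.58 ± 0.27), and 4 mitotic genes, Cenpf (-0.62 ± 0.24, adjusted p = 0.212), Cenpe (-0.58 ± 0.22), Ccnb2 (-0.59 ± 0.23) and Mki67 (-0.53 ± 0.23). DESeq2 called none. This test is unpaired. Fitted on the 16 time-series libraries alone it called no replication gene and 3 mitotic genes (lower), and 647 of 16621 genes higher and 452 lower. With the replicate number as a block within each time, which pairs the gates at 3 weeks, 6 replication genes were called higher and 9 mitotic genes lower. Over all genes that block fit called 1218 of 16621 higher and 1025 lower. The absence of calls thus depends on the model.

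**Figure D4:**
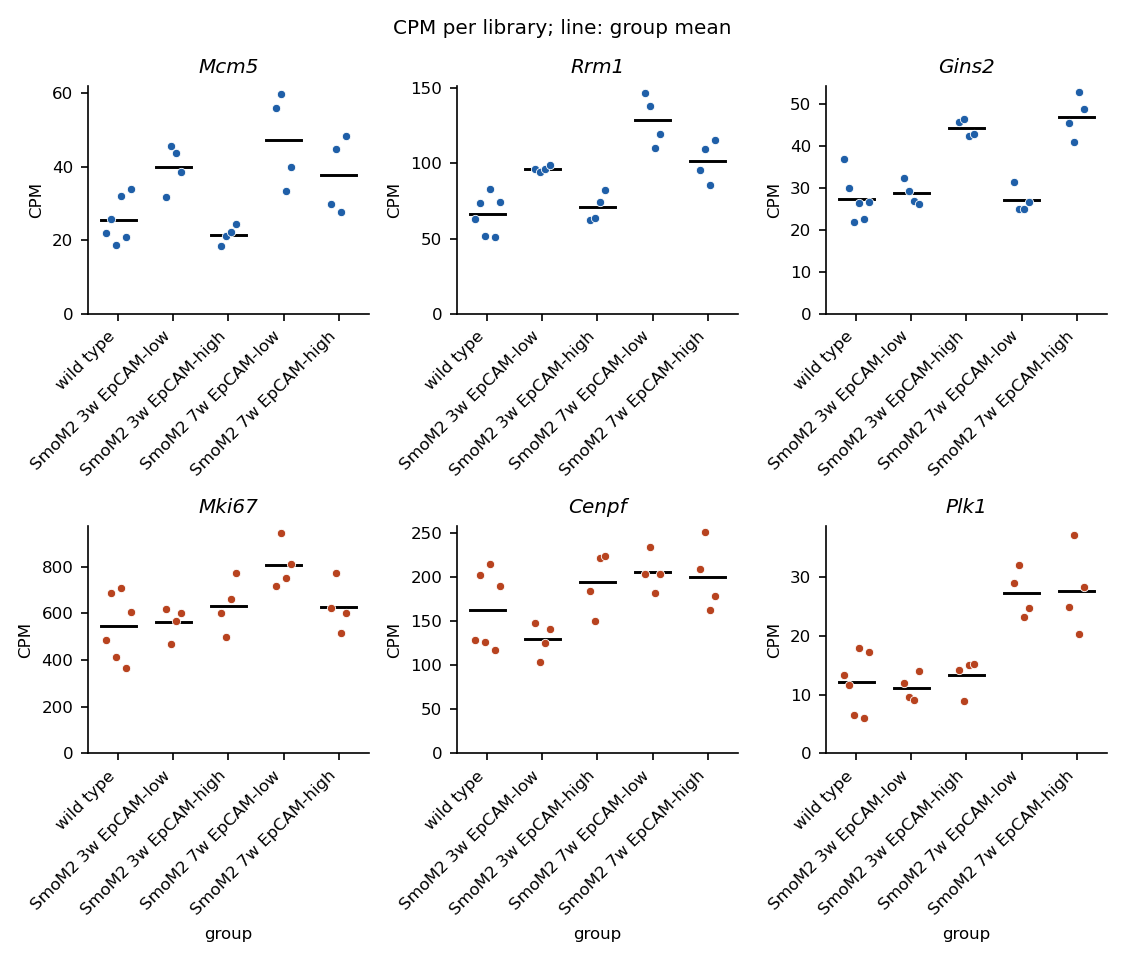
CPM (vertical axis) of 3 replication genes and 3 mitotic genes in wild type and in the 4 time-series groups, one point per library and a line at each group mean. Gins2 is higher in both EpCAM-high groups than in their EpCAM-low partners, Mcm5 and Rrm1 are lower in 3-week EpCAM-high cells than in 3-week EpCAM-low cells, and Plk1 is higher at 7 weeks in both gates.

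From 3 to 7 weeks most replication genes rose in EpCAM-high cells and many mitotic genes rose in EpCAM-low cells, though whether the changes differed between the gates depended on the model of the interaction test above. In EpCAM-high cells 13 of 19 replication genes rose and none fell: all 6 Mcm genes, Pcna, Rrm1, Rrm2, Tyms, Cdt1, E2f1 and Uhrf1. Mcm3 went from 16.7, 22.1, 14.8 and 17.9 CPM to 30.8, 45.2, 28.6 and 46.8 CPM, without overlap (1.03 ± 0.17, adjusted p = 6.39e-05). Pcna went from 84.7, 89.7, 83.1 and 79.9 to 110, 117, 99.2 and 120 CPM (0.35 ± 0.09, adjusted p = 0.00421). Mcm2 had the largest fold of the list (1.23 ± 0.26), and Ccne1 was not called (0.76 ± 0.32, adjusted p = 0.0589). Over all genes 22% rose and 19.4% fell. The medians were 0.49 for replication genes and 0.02 for all genes. Without 7-week EpCAM-high 4 the count was 8. Suprabasal markers, 5 of 7 of them called higher, were at 3452 to 4048 CPM at 3 weeks and 5529 to 7528 CPM at 7 weeks in these cells, and their part was not tested. Of the mitotic genes Plk1, Aurka and Cdk1 (0.50 ± 0.19) rose and Ccnb2 (-0.40 ± 0.16, adjusted p = 0.0499) fell. Plk1, the polo-like kinase, went from 14.1, 8.83, 15 and 15.2 to 24.8, 37.1, 20.3 and 28.3 CPM (1.00 ± 0.26, adjusted p = 0.0033), and Aurka from 10.1, 8.97, 11.2 and 13.3 to 18.8, 22, 15.3 and 18.6 CPM (0.72 ± 0.19, adjusted p = 0.0038). Neither overlapped between times. Mki67 (-0.07 ± 0.16), Top2a (-0.04 ± 0.16) and Ccnb1 (0.35 ± 0.21) were not called, the median was 0.04, and 2 mitotic genes were called without 3-week EpCAM-high 4, 7-week EpCAM-high 1 or 7-week EpCAM-high 4. Other replication genes moved with the members (28 of 54 rose, 2 fell), led by the clamp loader Rfc1 (0.72 ± 0.09) and the flap endonuclease Fen1 (1.04 ± 0.16), and of 59 other mitotic genes 6 rose and 3 fell, with the phosphatase Cdc25b (0.97 ± 0.18) and the centromere gene Cenpi (-0.70 ± 0.17) leading.

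In EpCAM-low cells 11 mitotic genes rose from 3 to 7 weeks and none fell: Mki67, Ccna2, Ccnb1, Cdk1, Cdc20, Plk1, Aurka, Bub1b, Cenpf, Kif20a and Nusap1. Here 19.5% of all genes rose and 18.4% fell. Plk1 went from 12.0, 9.62, 9.05 and 14 to 28.9, 32, 23.1 and 24.6 CPM (1.22 ± 0.26, adjusted p = 0.000829). Mki67 went from 619, 468, 567 and 603 to 718, 947, 753 and 813 CPM (0.46 ± 0.16, adjusted p = 0.0314). Aurka (0.89 ± 0.19), Ccnb1 (0.79 ± 0.22) and Cenpf (0.61 ± 0.17) did not overlap between times either, while Top2a was not called (0.11 ± 0.16). The median was 0.47, and 6 mitotic genes were called without 3-week EpCAM-low 2. Of the replication genes Ccne1 (1.00 ± 0.32, adjusted p = 0.0166), Rrm1 (0.35 ± 0.12) and Uhrf1 (0.50 ± 0.18) rose, with a median of 0.29 against 0.02 over all genes. That count was 0 without 7-week EpCAM-low 1, 1 without 3-week EpCAM-low 1, 3-week EpCAM-low 3 or 7-week EpCAM-low 2, 5 without 3-week EpCAM-low 2 and 6 without 7-week EpCAM-low 3. Mcm5 (0.18 ± 0.19), Pcna (0.13 ± 0.09) and Rrm2 (0.48 ± 0.21) were not called. Of the other pathway genes 13 of 54 replication genes rose and 2 fell, led by Fen1 (0.95 ± 0.16) and the Cdt1 inhibitor Gmnn (1.06 ± 0.18), and 18 of 59 mitotic genes rose and 3 fell, led by Cdc25b (1.10 ± 0.19) and Kif2c (0.96 ± 0.19). Suprabasal markers were at 5635 to 6565 CPM at 3 weeks and at 14191 to 16479 CPM at 7 weeks in these cells. The raw-name number differs between the times, so that it and the time cannot be told apart.

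The 4 time-series groups were also set against wild type, and these comparisons share the wild-type libraries. At 3 weeks, EpCAM-low cells, sorted by the same gate as wild type, had 10 replication genes higher and none lower, beside 23.1% and 24.3% of all genes. Cdc6 rose the most, from 0.81, 1.21 and 2.19 CPM (lowest, median, highest) to 5.77, 7.48, 3.81 and 3.39 CPM (1.89 ± 0.24, adjusted p = 1.1e-06). Mcm7 was at 39.2, 49.3, 41.4 and 43.1 CPM against 23.7, 29.4 and 33.4 CPM (0.52 ± 0.11, adjusted p = 0.000561), and Pcna at 85.9, 93.7, 95.9 and 88.5 against 58.5, 75.8 and 82.1 CPM (0.29 ± 0.08). In all 3 genes every EpCAM-low library lay above every wild-type library. Mcm3, Mcm5 (0.59 ± 0.17), Rrm1, Tk1, Cdt1, Ccne2 (0.69 ± 0.15) and Uhrf1 were the others, and Rrm2 (0.41 ± 0.20) and Ccne1 (0.62 ± 0.32) were not called. Only 2 mitotic genes were called, Foxm1 higher (0.56 ± 0.17, adjusted p = 0.00804) and Cenpf lower (-0.38 ± 0.15, adjusted p = 0.0454), and Mki67 (0 ± 0.15), Top2a (0.23 ± 0.14), Ccnb1 (-0.07 ± 0.20) and Plk1 (-0.17 ± 0.25) were not. That count was 6 without wild type 2, 4 without EpCAM-low 2 and 1 without wild type 6 or EpCAM-low 3. The medians were 0.49 and 0.11, against 0.01 over all genes. Summing the wild-type pairs gave 9 replication genes and the same count of mitotic genes.

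At 7 weeks EpCAM-low cells had 16 replication and 19 mitotic genes higher than wild type and none lower, beside 19.4% of all genes higher and 21% lower. Rrm1 was at 147, 138, 110 and 120 CPM against 50.9, 68.4 and 82.8 CPM (lowest, median, highest; 0.85 ± 0.11, adjusted p = 3.67e-06). Ccne1 (1.62 ± 0.30) and Cdc6 (1.60 ± 0.25) had the largest folds, and Mcm5 (0.77 ± 0.17), Pcna (0.41 ± 0.08) and Rrm2 (0.89 ± 0.19) rose. The 3 replication genes not called were Mcm6, Tyms and Gins2 (-0.14 ± 0.13). Bub1b, a spindle checkpoint gene, was at 52.0, 59.3, 50.7 and 52.8 against 17.0, 26.7 and 34.7 CPM (0.93 ± 0.17, adjusted p = 0.000148). Rrm1 and Bub1b libraries did not overlap between the groups. Aurka (0.97 ± 0.17), Plk1 (1.05 ± 0.23), Ccnb1 (0.71 ± 0.19) and Mki67 (0.46 ± 0.15) rose, and Top2a, Bub1, Cenpf and Ube2c were the 4 not called. The medians were 0.80 and 0.61. With the wild-type pairs summed, 14 replication and 17 mitotic genes were higher. Among other pathway genes, 39 of 54 replication genes were higher, led by Rpa2 (1.46 ± 0.18) and Pole (0.87 ± 0.13), 38 of 59 mitotic genes were higher, led by Kif2c (1.36 ± 0.17) and Dlgap5 (0.95 ± 0.14), and none of either list was lower.

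EpCAM-high cells at 3 weeks had 3 replication genes higher than wild type, Cdc6 (1.69 ± 0.24, adjusted p = 2.56e-06), Gins2 (0.58 ± 0.12) and Ccne2 (0.54 ± 0.15), and 2 lower, Mcm2 (-0.65 ± 0.25, adjusted p = 0.0288) and Mcm6 (-0.42 ± 0.17). Here 28.2% of all genes were higher and 30.7% lower, against 15.8% and 10.5% of the replication genes. Both replication counts are thus under the background shares. Cdc6 was at 4.44, 4.12, 4.48 and 5.26 CPM, above all wild-type libraries (0.81 to 2.19 CPM). The lower calls of Mcm2 and Mcm6 were lost without wild type 6, EpCAM-high 1 or EpCAM-high 4. Of the mitotic genes 8 were higher and none lower: Top2a (0.34 ± 0.14), Ccnb2 (0.67 ± 0.14), Cenpe, Kif11, Tpx2, Ube2c, Foxm1 (0.66 ± 0.17) and Parpbp. That is 34.8% of the mitotic genes, near the 28.2% of all genes. Parpbp was at 17.2, 11.5, 19.3 and 19.3 CPM against 6.89, 8.87 and 10.5 CPM (0.84 ± 0.18, adjusted p = 0.000348), without overlap. The mitotic count was 5 without EpCAM-high 4. Mki67 (0.11 ± 0.15), Ccnb1 (0.31 ± 0.20), Plk1 (0.03 ± 0.24), Mcm5 (-0.35 ± 0.18) and Pcna (0.12 ± 0.08) were not called. The medians were -0.06 and 0.31, against -0.02 over all genes. With the wild-type pairs summed, 3 replication genes were higher and 1 lower, and 6 mitotic genes were higher.

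EpCAM-high cells at 7 weeks had 14 replication and 13 mitotic genes higher than wild type and none lower, beside 27.7% and 29.9% of all genes. Cdc6 was at 6.36, 6.61, 5.14 and 4.68 CPM (1.95 ± 0.24, adjusted p = 2.18e-07) and Pcna at 110, 117, 99.2 and 120 CPM (0.47 ± 0.08, adjusted p = 3.91e-05), both above every wild-type library. Ccne2 (0.85 ± 0.15), Ccne1 (1.35 ± 0.30) and Mcm5 (0.41 ± 0.17) rose too, and Rrm2 (0.29 ± 0.20) was not called. Of the mitotic genes Aurka (0.95 ± 0.17), Plk1 (1.03 ± 0.23), Parpbp (0.81 ± 0.18) and Ccnb1 (0.66 ± 0.19) rose, and Mki67 (0.04 ± 0.15) and Top2a (0.30 ± 0.14) were not called. The medians were 0.55 and 0.57, and with the wild-type pairs summed 11 and 12 genes were higher. In the 4 comparisons with wild type the raw-name numbers of the groups differ and cannot be told apart from the groups, and only wild type has a strain in the labels. All 7 suprabasal markers were lower than in wild type in 3-week EpCAM-low cells, 2 in 7-week EpCAM-low, 6 in 3-week EpCAM-high and 4 in 7-week EpCAM-high cells, and none was higher. Their sums were 5635 to 6565, 14191 to 16479, 3452 to 4048 and 5529 to 7528 CPM in these groups, against 11899 to 26505 CPM in wild type, and their part was not tested.

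The embryonic cells had higher levels of nearly all replication genes than wild type. In all 19 both embryo libraries lay above all 6 wild-type libraries by plain CPM, as was so for 51.6% of all genes. By the test 17 were higher and none lower, beside 36.1% and 27.8% of all genes. Cdc6 was at 32.3 and 17.1 CPM against 0.81, 1.21 and 2.19 CPM (lowest, median, highest) in wild type (3.71 ± 0.34, adjusted p = 9.53e-13). Ccne1 was at 29.9 and 11.8 CPM against 0.825, 2.05 and 3.77 CPM (2.83 ± 0.37, adjusted p = 7.67e-09). Mcm7 was at 160 and 85.4 CPM against 23.7, 29.4 and 33.4 CPM (1.56 ± 0.20). The first embryo library was the higher in 18 of the 19 genes, Gins2 being the exception. Mcm5 (1.04 ± 0.26) and Rrm2 (0.82 ± 0.28) rose, and Pcna (0.33 ± 0.17, adjusted p = 0.0914) and Tk1 (0.16 ± 0.21) were the 2 not called. The median was 1.38, against 0.16 over all genes. DESeq2's size factors in the same fit moved the median over all genes to 0.27. Of 54 other replication genes 48 were higher and 1 lower, led by Exo1 (2.94 ± 0.31) and Cdc25a (1.81 ± 0.19).

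The mitotic genes of the embryo had no common direction. Bub1, a checkpoint kinase, was higher, at 54.2 and 43.3 CPM against 11.8, 18.3 and 29.2 CPM (0.82 ± 0.27, adjusted p = 0.00713). Cdc20 was lower by the fit (-0.94 ± 0.29, adjusted p = 0.00418), although its plain CPM of 43.2 and 24.8 overlapped the wild-type range of 29.6 to 63.1. Mki67 (-0.76 ± 0.26, adjusted p = 0.00957), Cenpf (-0.76 ± 0.27) and Ube2c (-0.73 ± 0.33, adjusted p = 0.0483) were lower as well. That made 1 higher and 4 lower. Over all genes 36.1% were higher and 27.8% lower, so both mitotic counts are under the background shares. With either embryo library left out, 1 remains, so calls of those fits are not read as a result. Top2a (-0.41 ± 0.27), Ccnb1 (-0.24 ± 0.31) and Plk1 (0.02 ± 0.33) were not called. The median was -0.04. By plain totals the mitotic sum was 2238 and 1599 CPM in the embryo, and by TMM-scaled totals 1702 and 1207 CPM, against 1295 to 2352 CPM in wild type on that scale, so its place relative to the wild-type mean depends on the scaling. Of 59 other mitotic genes 16 were higher and 10 lower, led by Anln (-2.01 ± 0.24) and Cenpu (1.28 ± 0.19). With the wild-type pairs summed, 17 replication genes were higher, and 1 mitotic gene was higher and 3 lower. Fibroblast markers were at 243 and 428 CPM in the embryo and 20.2 to 114 CPM in wild type, suprabasal markers at 298 and 461 against 11899 to 26505 CPM, and their part was not tested. The gate, strain and reporter also differ between these groups.

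Columnar cells of the junction had lower levels of nearly all mitotic genes than squamous cells of the junction, with one exception. Of the 23, 22 were lower and Plk1 was higher, where 35.2% of all genes were lower and 39.2% higher. Top2a was at 86.2, 76.9, 101 and 118 CPM in the columnar and at 386, 312 and 428 CPM in the squamous libraries (-2.29 ± 0.14, adjusted p = 7.09e-08). Cdc20 was at 25.2, 12.1, 23.8 and 26.2 against 90.4, 75.3 and 104 CPM (-2.36 ± 0.20, adjusted p = 9.69e-07). Mki67 was at 287, 224, 342 and 398 against 649, 642 and 726 CPM (-1.42 ± 0.16, adjusted p = 7.51e-06). None of the 3 overlapped between groups. Plk1 was at 106, 96.1, 86.8 and 102 CPM in the columnar and 21, 13.4 and 19.7 CPM in the squamous libraries (2.13 ± 0.14, adjusted p = 1.06e-07). The partners of Plk1 in mitotic entry, Ccnb1 (-1.75 ± 0.17) and Cdk1, and the kinases Aurka and Aurkb were lower, so that Plk1 stood apart from its list. In the stomach Plk1 was at 74.1 and 86.8 CPM and in the gut at 30.3 and 63.3 CPM, above the 5.97 to 18.0 CPM of wild type. The lower calls ran from -0.53 to -2.36, and the median was -1.49, against 0.08 over all genes.

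The replication genes were split. Cdc6 was higher in columnar cells, at 8.30, 9.19, 9.80 and 8.13 against 2.98, 2.46 and 1.57 CPM (1.61 ± 0.25, adjusted p = 0.000134), and so was Gins2, at 58.7, 65.7, 45 and 66.9 against 29.9, 31.2 and 29.5 CPM (0.66 ± 0.13, adjusted p = 0.000805). Neither gene overlapped between groups. Cdc6 was also high in the stomach (18.1 and 17.9 CPM) and the gut (6.77 and 15.4 CPM) beside wild type (0.81 to 2.19 CPM). The 10 lower genes were Mcm4, Mcm5, Pcna, Rrm1, Rrm2, Tyms, Cdt1, Gins1, E2f1 and Uhrf1. Rrm2 was at 9.69, 12.3, 8.63 and 13.2 against 28.4, 25.4 and 43.3 CPM (-1.87 ± 0.20, adjusted p = 6.4e-06), and Pcna at 56.9, 56.5, 48.8 and 49.0 against 87.6, 86.1 and 93.2 CPM (-1.06 ± 0.09, adjusted p = 9.84e-07). Mcm5 (-1.28 ± 0.17) and Rrm1 (-0.86 ± 0.11) were lower by like amounts, and Ccne1 was not called (0.29 ± 0.32). The median was -0.42. Of the other pathway genes 25 of 54 replication genes were lower and 4 higher, with Dbf4 (-1.67 ± 0.12), which activates the kinase of origin firing, and Cdc25a (2.16 ± 0.16) leading, and 53 of 59 mitotic genes were lower and none higher, led by Prc1 (-2.5 ± 0.12) and Anln (-2.23 ± 0.11). Immune markers (8 genes, none at 0 in all columnar libraries and 1 at 0 in all squamous ones) were at 188 to 423 CPM in columnar and 15 to 22.4 CPM in squamous libraries, with Ptprc, the pan-leukocyte gene, at 54.4 to 114 against 0 to 0.154 CPM. Their part in the result was not tested, and the raw-name numbers of these 2 groups differ.

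**Figure D5:**
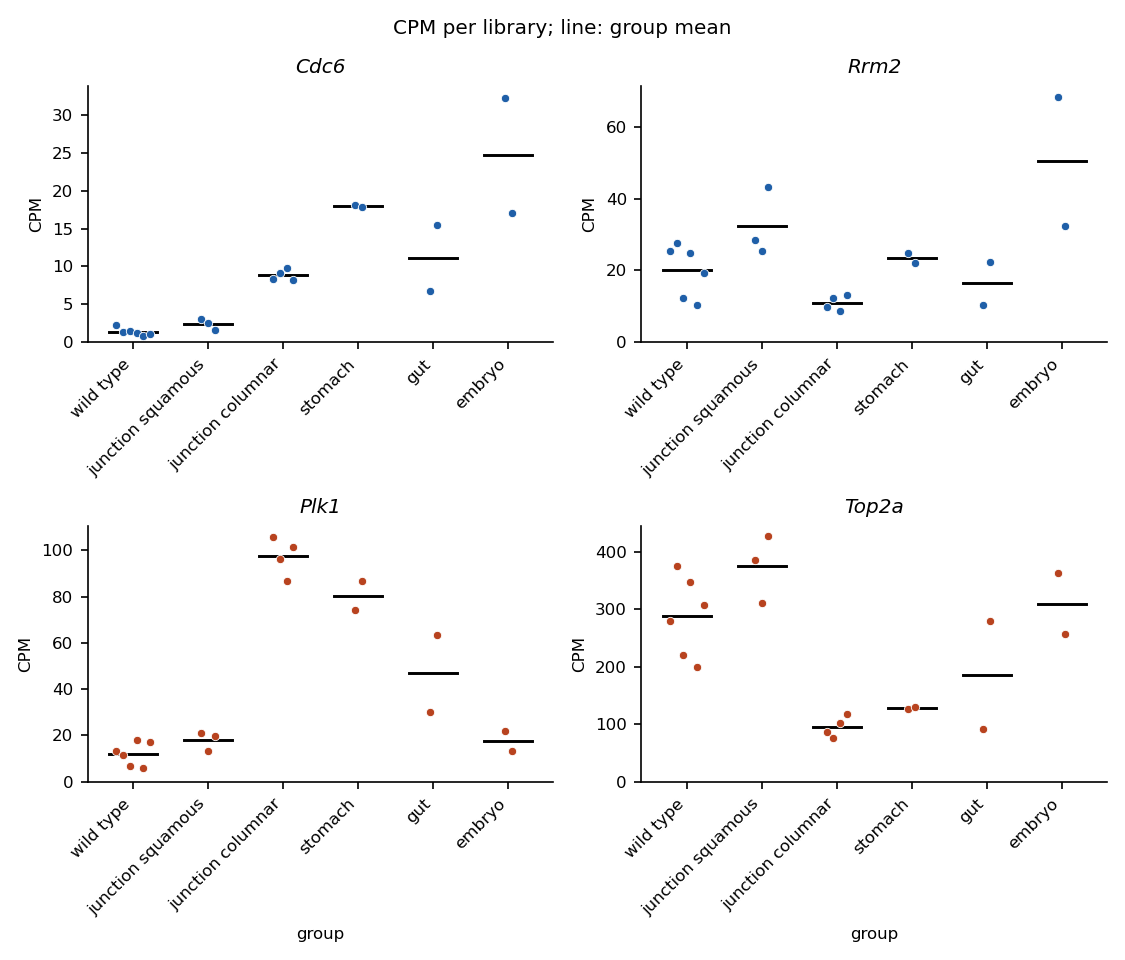
CPM (vertical axis) of Cdc6, Rrm2, Plk1 and Top2a in wild type, both parts of the junction, stomach, gut and embryo, one point per library and a line at each group mean. Plk1 is at 86.8 to 106 CPM in junction columnar cells and at 13.4 to 21 CPM in junction squamous cells, while Top2a is at 76.9 to 118 and at 312 to 428 CPM.

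Between gut and stomach no member was called, beside 15.6% of all genes higher in gut and 15.4% lower. At an unadjusted p under 0.05 there were 2 replication genes, E2f1 (1.07 ± 0.47) and Rrm1 (-0.44 ± 0.22), and 3 mitotic genes, Kif23 (0.74 ± 0.32, adjusted p = 0.0777), Top2a (0.71 ± 0.33) and Foxm1 (0.76 ± 0.38). DESeq2 called Kif23. The 2 gut libraries stood far apart, with replication sums of 323 and 652 CPM and mitotic sums of 709 and 1635 CPM, beside stomach sums near 617 and 1287 CPM. Top2a was at 90.9 and 280 CPM in the gut and at 127 and 129 CPM in the stomach. With either gut library left out, 1 gut library remains, so calls of those fits are not read as a result. Summed immune markers were at 545 and 651 CPM in the gut and at 3.67 and 18.8 CPM in the stomach. Ptprc was at only 1.78 and 3.58 CPM in the gut and at 1.7 and 0 CPM in the stomach. Most of the gut sum thus came from other markers of the list. The part of these markers was not tested.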

How the data were processed

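The deposited table holds whole-number read counts per gene for each library. Per the submitters' processing notes, STAR 2.5.3a, HTSeq and edgeR were used with builds GRCm38 and mm10, and per the labels' protocols libraries were made from total RNA with the Ovation Solo kit and sequenced on a NovaSeq. CPM here is a count scaled by the library's total, with its SD over libraries. Tests were edgeR's quasi-likelihood test (edgeR 4.0.16, limma 3.58.1, R 4.3.3), two-sided, with TMM scaling, filterByExpr (count minimum 10, total minimum 15) and Benjamini-Hochberg adjustment over all genes tested. Folds are log2, and their SE is the absolute fold divided by the square root of the test's F statistic. The procedure was run on simulated data for the comparisons fitted alone, listed below, and not for the larger fits. Counts at an unadjusted p under 0.05 were made for members only, so no share of all genes stands beside them. SmoM2 against wild type, Krt8-YFP+ against Krt8-YFP-, Sox9fl/fl against SmoM2 and the junction were each fitted alone. The time series with wild type was 1 fit of 22 libraries, and embryo against wild type and gut against stomach came from 1 fit of all 51.

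Alternatives were DESeq2's size factors in edgeR, no filter, DESeq2 1.42.0, a replicate block, each library left out, a fit of all 14 groups or of the groups compared alone, wild-type pairs summed and thinning. Same-numbered libraries deviated together (correlation of deviations over 0.1 in every pair) for Krt8-YFP+ with Krt8-YFP- (0.291 to 0.409) and for the gates at 3 weeks (0.165 to 0.295), so the block is given beside those results. With groups of 2 to 6 libraries, and totals down to 1.61 M reads, small changes of low genes are not resolved. Limits for a count of 0 use 3 counts and cover counting error only. The members and all gene lists were chosen with earlier results of these data known. Named in full were Mcm5, Pcna, Rrm2, Ccne1, Mki67, Top2a, Ccnb1 and Plk1, and per comparison members of smallest p or largest fold, while others are named by call. Of the other pathway lists, up to 2 genes of smallest p are named. Promoters came from a RefSeq table of build GRCm38.p6, matched by symbol.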

Additional observations from a re-analysis of the deposited data

Results flagged for a closer look

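In 14 of 352 gene and group combinations with 4 to 10 libraries, 1 library stood far from the rest of its group relative to the group's range, and chance alone gives about 1 in 20. In the Sox9fl/fl group the second library was low for Top2a (174 CPM, others 283 to 299), Bub1 (9.02, others 18.6 to 19.7) and Kif11 (36.6, others 69.5 to 75.7), and the fourth was high for Rrm1 (113, others 75.7 to 81.8) and Tyms (22.2, others 12.2 to 13.48). The second 3-week EpCAM-high library was low for Cdk1 (17.1 CPM, others 29.6 to 31.9) and Cdc20 (41.3, others 58 to 59.7). The second 3-week EpCAM-low library was low for Kif23 (59.1 CPM, others 76.1 to 79.3) and the fourth was high for Tyms (18.6, others 15.9 to 16.3). In the junction columnar cells the second library was high for Mcm4 (33.4 CPM, others 28.7 to 29.4) and low for Cdc20 (12.1, others 23.8 to 26.2), and the third was low for the summed replication genes (426, others 493 to 496). Wild type 2 was high for Mcm4 (58.2 CPM, others 40.3 to 45.4), and SmoM2 3 was high for Rrm2 (21.7, others 15.9 to 17.9). In the unpaired fit of 22 libraries no member passed the test of a gate difference that changed with time.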

How the results depend on the processing

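Counts of called members are given as replication, then mitotic genes. With each library left out in turn they ran over 4 to 6 and 7 to 12 for SmoM2 against wild type, 1 to 9 and 4 to 17 for Krt8-YFP, 0 to 0 and 0 to 17 for Sox9fl/fl, 6 to 10 and 0 to 3 for the gates at 3 weeks, 2 to 6 and 0 to 1 at 7 weeks, and 0 to 0 for both lists for gate by time. From 3 to 7 weeks they ran over 8 to 13 and 2 to 5 in EpCAM-high and 0 to 6 and 6 to 14 in EpCAM-low cells. Against wild type they ran over 8 to 12 and 1 to 6 (EpCAM-low, 3 weeks), 13 to 17 and 13 to 21 (EpCAM-low, 7 weeks), 3 to 6 and 5 to 11 (EpCAM-high, 3 weeks), 10 to 16 and 12 to 18 (EpCAM-high, 7 weeks) and 12 to 18 and 1 to 5 (embryo). They ran over 11 to 12 and 22 to 23 for the junction and 0 to 2 and 0 to 3 for gut against stomach. Where 1 library of a group remained, it was assumed to vary like the other groups.

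With the replicate block, Krt8-YFP gave 13 replication genes and the 3-week gates 13 mitotic genes. Over all genes it called 4785 of 15598 for Krt8-YFP, against 3110 without it. For the 3-week gates it called 5968 of 15777, against 4474 in the fit alone. For the 7-week gates all 4 pairs correlated best with their own number, 1 of them at 0.075 and so under the 0.1 set for pairing, and the block gave 7 replication and 3 mitotic genes. It gave 6 and 9 for gate by time. In the time series the block was fitted on the groups compared alone, so 2 choices change together: the block gave 9 replication genes for EpCAM-low over time, where the fit alone gave 8, and 1 and 5 mitotic genes for 3-week EpCAM-low and EpCAM-high cells against wild type, as did the fit alone. Other counts moved by no more than 1.5 times with the block.

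The fit of all 14 groups gave 14 and 19 for Krt8-YFP, 5 mitotic for Sox9fl/fl, 3 and 0 for the 3-week gates, 2 replication for the 7-week gates, 7 and 2 for EpCAM-high over time, 1 and 6 for EpCAM-low over time, 6 and 1 for 3-week EpCAM-low against wild type, 12 mitotic for 7-week EpCAM-low against wild type, and 3 and 5 for 3-week EpCAM-high against wild type. Calls over all genes moved too. Of 22370 genes this fit called 3397 lower for Krt8-YFP, against 1065 of 15598 in the main fit. For Sox9fl/fl it called 709 higher, against 201 of 17047. For the 3-week gates it called 1378 in either direction, against 2625 of 17263. Fits of the groups compared alone gave mitotic counts of 5 and 2 for the gates at 3 and 7 weeks, 3 for gate by time, and 1 and 5 for 3-week EpCAM-low and EpCAM-high against wild type, and 8 replication genes for EpCAM-low over time. Without the filter, mitotic counts were 19 for Krt8-YFP, 2 for Sox9fl/fl, 1 for the 7-week gates and 5 for 3-week EpCAM-low against wild type, and replication counts were 6 for EpCAM-low over time and 7 for 3-week EpCAM-high against wild type, where 4 lower against 3 higher turned the balance. Mitotic counts were 2 by DESeq2 for Sox9fl/fl, and 1 by DESeq2 and 1 with its size factors for gut against stomach. Summing the wild-type pairs gave 2 replication genes for SmoM2 against wild type. Calls over all genes also changed between settings, so these counts are not changes of the members alone. The cause of the changes was not tested.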

Other observations

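The 19 replication-dependent histone genes on the list, whose products package new DNA in S phase, were read here although their transcripts mostly lack the poly(A) tail, since the libraries came from total RNA. In the junction columnar cells 15 of the 19 were lower than in the squamous cells (35.2% of all genes were) and none was higher, with a median log2 fold change of -1.40, led by Hist1h2ab (-2.03) and Hist1h2ae (-1.67) (edgeR, as above). In 3-week EpCAM-low cells 12 were higher than in wild type (23.1% of all genes were) and 1 lower, led by Hist1h1a (1.23) and Hist1h4d (0.85), with a median of 0.48. EpCAM-high cells had 6 lower at 3 weeks and 7 lower at 7 weeks than EpCAM-low cells (7.84% and 16.8% of all genes were) and none higher, with medians of -0.42 and -0.37. Krt8-YFP+ cells had 5 lower than Krt8-YFP- cells (6.83% of all genes were) and none higher, with a median of -1.04. From 3 to 7 weeks 2 histone genes rose and 6 fell in EpCAM-high cells and 1 rose and 5 fell in EpCAM-low cells, beside 19.4% and 18.4% of all genes that fell, Hist1h1c rising (0.62 and 0.53) and Hist1h1a falling (-0.69 and -0.63) in each. Higher and lower calls against wild type were 1 and 2 in SmoM2, beside 26.2% and 23.3% of all genes. They were 6 and 0 in 7-week EpCAM-low cells (19.4% and 21%) and 4 and 2 in 3-week EpCAM-high cells (28.2% and 30.7%). In 7-week EpCAM-high cells they were 0 and 2 (27.7% and 29.9%), and in embryonic cells 4 and 2 (36.1% and 27.8%). Gut against stomach gave 2 and 0 (15.6% and 15.4%). Sox9fl/fl against SmoM2 gave 0 and 0 (1.18% and 1.48%), as did gate by time (1.55% and 0.759%). Histone genes share sequence, so reads can be split between copies and single-gene values are uncertain.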
